A study of Mus musculus with 48 samples.

Results

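To ask how epidermis labelled as lacking collagen XIV differed from epidermis labelled wild type in the early night, the libraries taken at Zeitgeber time (ZT, hours after lights on) 16 were compared. Bulk polyA RNA sequencing had been done on suspended epidermal cells of mice aged 47 weeks, labelled ColXIV KO or ColXIV WT. Groups were chosen by label, which gave 4 libraries labelled KO and 4 labelled WT, 8 of the 48 in the series. The other 40 libraries, from ZT0, ZT4, ZT8, ZT12 and ZT20, served to estimate each gene's spread and to set the ZT16 difference beside the other times. The labels call the 4 libraries of a group biological replicates and name neither the kind of allele nor the sex of the mice. Library totals at ZT16 were 37.0 to 41.4 M counts under the KO label and 39.4 to 42.9 M under the WT label, and 17068 genes were tested. Levels below are CPM, read counts relative to TMM-scaled library size, and fold changes are log2 of KO label over WT label with their standard error (SE).

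Collagen XIV is a fibril-associated collagen of the dermis and other connective tissues, made mainly by fibroblasts, whereas the epidermis consists of keratinocytes that divide in the basal layer and differentiate outwards, with resident Langerhans cells and T cells. Skin keeps a circadian clock in which BMAL1 and CLOCK drive their own repressors, and keratinocyte division is timed within the day. Interferons act through STAT and IRF factors to induce GTPases and antiviral effectors, and keratinocytes are among the cells that respond. Mice are active at night, and corticosterone, the rodent glucocorticoid, peaks around the onset of the dark phase.

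Keratinocyte markers were abundant in all 8 libraries. The basal keratin gene Krt14 was at 3931 to 5183 CPM under the KO label and 4850 to 6138 CPM under the WT label, and the suprabasal Krt10 at 12285 to 17506 and 11136 to 16606 CPM. Sex-linked genes divided the libraries in a way that was not balanced between labels. Xist, the RNA that silences 1 X chromosome in females, was at 1386 CPM in KO replicate 1 and at 1618 and 1791 CPM in WT replicates 1 and 3. The other libraries, KO replicates 2, 3 and 4 and WT replicates 2 and 4, had 0.501 CPM or less of Xist and 191 to 232 CPM of 4 genes of the Y chromosome (Uty, Kdm5d, Ddx3y and Eif2s3y) in sum. WT replicate 4 stood apart in hair genes. The 16 genes of the anagen hair list summed to 612 CPM there, against 43.5 to 86.2 CPM under the KO label and 39.5, 104 and 65.6 CPM in WT replicates 1 to 3. Its fibroblast and dermis list summed to 737 CPM, against 369 to 596 CPM under the KO label.

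The targeted gene went against the labels. Col14a1 (chr15:55307644-55520803, GRCm38) was at 57.4, 71.7, 57.5 and 56.4 CPM in the libraries labelled KO and at 0.863, 1.98, 0.899 and 3.06 CPM in those labelled WT. The groups did not overlap, and the libraries labelled KO were the high ones. The log2 fold change was 5.17 ± 0.45 (SE, n = 4 each, edgeR adjusted p = 1.2e-09). Reads of Col14a1 numbered 2222 to 2967 under the KO label and 36 to 125 under the WT label. Gene counts do not show which exons were read, so the check says nothing about a deleted part. At the other 5 times Col14a1 was likewise higher under the KO label, by 5.12 to 6.16 on the log2 scale. Whether the labels were exchanged cannot be told apart here from an allele with a raised transcript. Every direction below is therefore given by label, and would turn round if they were exchanged. Col1a1, the dermal collagen gene, was at 1.499, 20.6, 1.94 and 4.44 CPM under the KO label and at 0.599, 22.4, 0.899 and 96.1 CPM under the WT label. KO replicate 2 and WT replicates 2 and 4 were its high libraries. Fewer cells of a type and less RNA per cell cannot be told apart in bulk tissue.

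In all, 22 genes passed an adjusted p of 0.05 (edgeR quasi-likelihood test, Benjamini-Hochberg), 0.129% of those tested. Of these, 15 rose under the KO label (0.0879% of genes tested) and 7 fell (0.041%). The p-values and SE rest on a spread estimated over all 48 libraries. With only the 8 ZT16 libraries in the fit, 1 gene was called, Col14a1. The groups did not overlap for 21 of the 22, the exception being Cyp27a1. Across all genes, 289 lay wholly higher under the KO label (1.69%) and 262 wholly lower (1.54%). A position was known for 20 of the called genes, and 14 of these lay on chromosome 15, the chromosome of Col14a1, which holds 4.08% of the placed genes tested. They started between 32.2 and 100 Mb, with 8 higher and 6 lower. The other 6 placed genes were 4 Serpina3 genes on chromosome 12, Stmn1 on chromosome 4 and Cyp27a1 on chromosome 1. Another 2 called IDs, with neither symbol nor position, rose by 2.17 and 0.97 on the log2 scale.

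**Figure D1:**
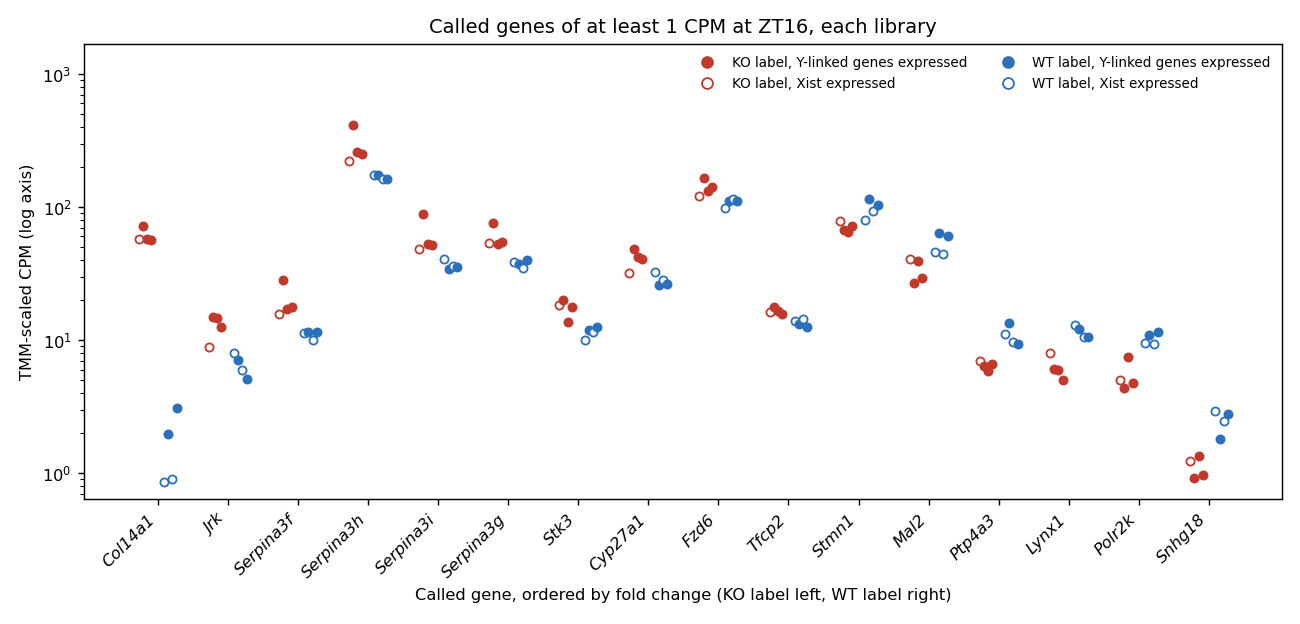
Level of the 16 named called genes that averaged at least 1 CPM, in TMM-scaled CPM on a log axis, in each ZT16 library (replicates 1 to 4 from left to right within a label; open circles express Xist, filled circles Y-linked genes). Col14a1 lies between 56.4 and 71.7 CPM under the KO label and at 3.06 CPM or less under the WT label, and KO replicate 2 is the highest library for all 4 Serpina3 genes.

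Among the chromosome 15 genes, several act in signalling. Stk3, which encodes the Hippo pathway kinase MST2, was at 18.4, 19.9, 13.8 and 17.8 CPM under the KO label and at 10.04, 12.0, 11.4 and 12.5 CPM under the WT label. It rose by 0.61 ± 0.12 (adjusted p = 0.018), and its fold change at the other 5 times was 0.40 to 0.75. Fzd6, a Frizzled receptor that orients hair follicles in mice, was at 121, 164, 133 and 141 CPM under the KO label and at 98.9, 111, 114 and 111 CPM under the WT label (0.37 ± 0.07, adjusted p = 0.0041). Its 4 KO libraries all lay above the highest WT library. Ptp4a3, a phosphatase linked to cell migration, was at 6.95, 6.36, 5.86 and 6.57 CPM against 11.05, 13.3, 9.65 and 9.29 CPM under the WT label. It fell by 0.74 ± 0.11 (adjusted p = 1.6e-04), against -0.40 to 0.08 at the other times.

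Genes of transcription and of membrane proteins on the same chromosome also differed. Polr2k, a small subunit shared by the nuclear RNA polymerases, was at 5.04, 4.33, 7.49 and 4.73 CPM under the KO label and at 9.44, 10.8, 9.38 and 11.4 CPM under the WT label, and fell by 0.92 ± 0.15. It was below the WT label at the other 5 times too, by 0.45 to 0.91 on the log2 scale. Tfcp2, a transcription factor of the grainyhead family, rose by 0.30 ± 0.07, with fold changes between -0.09 and 0.12 at the other times. Jrk, which encodes a DNA-binding protein, averaged 12.7 ± 2.8 CPM under the KO label and 6.51 ± 1.24 CPM under the WT label (SD) and rose by 0.98 ± 0.19. Mal2, a proteolipid of transcytosis, was at 40.4, 26.6, 39.0 and 29.4 CPM under the KO label and at 46.0, 63.6, 44.5 and 61.0 CPM under the WT label, and fell by 0.66 ± 0.14. Lynx1, which encodes a membrane-anchored modulator of nicotinic acetylcholine receptors, fell by 0.88 ± 0.19, while Ly6k, of the same family and nearby, rose by 2.34 ± 0.52. Ly6k was at 0.471 to 1.84 CPM under the KO label and 0.147 to 0.200 CPM under the WT label. Snhg18, a host transcript of small nucleolar RNA, fell by 1.15 ± 0.25.

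Many of the chromosome 15 calls depended on single libraries. Col14a1, Ptp4a3 and Polr2k were called whichever library was left out, whereas without KO replicate 2 the calls of Stk3, Fzd6, Tfcp2, Jrk, Mal2, Lynx1, Ly6k, Snhg18, Baalc, Zfpm2 and Slc22a22 were lost. Without WT replicate 4 those of Tfcp2, Jrk, Mal2, Lynx1, Ly6k, Snhg18 and Zfpm2 were lost, and without WT replicate 2 those of Stk3, Tfcp2, Mal2, Lynx1, Ly6k, Zfpm2 and Slc22a22. Each of the other 5 libraries, left out, ended the calls of 3 to 6 of these genes, while those of Baalc and Fzd6 were lost without KO replicate 2 alone. In the contrasts of other times, Stk3 and Snhg18 were also called at ZT0, ZT8 and ZT20. Slc22a22 was called at ZT0, ZT4, ZT8 and ZT20, Polr2k at ZT0, ZT4 and ZT8, Baalc at ZT8 and ZT20, and Fzd6 at ZT8. Ptp4a3, Tfcp2, Jrk, Mal2, Lynx1, Ly6k and Zfpm2 were called at no other time.

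The other chromosome 15 calls were of genes near the limit of detection. Baalc, a gene named for its expression in brain and acute leukaemia, was at 0.491, 3.00, 0.654 and 1.31 CPM under the KO label and at 0.147 CPM or less under the WT label. Zfpm2, which encodes a cofactor of GATA factors, was at 0.226 to 2.22 CPM under the KO label and 0.0734 to 0.175 CPM under the WT label. Slc22a22, of the organic anion transporter family, had reads in 1 of the 4 libraries labelled KO and stood at 0.0734 to 0.243 CPM under the WT label. Rpl30, which lies in the same stretch of the chromosome, did not pass (-0.46 ± 0.14, adjusted p = 0.25). Its gene copy Gm5481 on chromosome 16, which can share reads with it, was at 16.3, 26.3, 12.1 and 23.8 CPM under the KO label. Under the WT label Gm5481 was at 0.144, 13.4, 0.0972 and 0.122 CPM, so WT replicate 2 lay at the level of the KO label, and the gene did not pass (adjusted p = 0.31).

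The Serpina3 genes formed the main group of calls away from chromosome 15. They encode serine protease inhibitors of the antichymotrypsin family, which multiplied in the mouse into a cluster on chromosome 12, and Serpina3g, also called Spi2A, inhibits lysosomal cysteine proteases. Serpina3h is annotated as a transcribed pseudogene. For the 3 called members with a RefSeq window, the 250 bases before their most upstream start with a window are shown (GRCm38.p6, plus strand). They are shown because all 3 hold a match to the interferon-gamma activated site, the element that STAT dimers bind. Capitals mark matches to this site (TTCNNNGAA) and to the TEAD element (GGAATG).
Serpina3f, chr12:104214294-104214543: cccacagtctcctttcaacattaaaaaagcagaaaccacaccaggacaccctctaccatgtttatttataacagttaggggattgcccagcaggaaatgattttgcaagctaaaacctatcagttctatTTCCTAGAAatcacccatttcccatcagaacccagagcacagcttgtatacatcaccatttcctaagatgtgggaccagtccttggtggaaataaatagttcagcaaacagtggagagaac
Serpina3g, chr12:104235897-104236146: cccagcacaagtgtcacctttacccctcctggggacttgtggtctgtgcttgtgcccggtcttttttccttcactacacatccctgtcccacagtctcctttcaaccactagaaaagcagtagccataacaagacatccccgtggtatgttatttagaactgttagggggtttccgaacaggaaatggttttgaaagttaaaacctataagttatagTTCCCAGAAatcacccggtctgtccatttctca
Serpina3i, chr12:104262872-104263121: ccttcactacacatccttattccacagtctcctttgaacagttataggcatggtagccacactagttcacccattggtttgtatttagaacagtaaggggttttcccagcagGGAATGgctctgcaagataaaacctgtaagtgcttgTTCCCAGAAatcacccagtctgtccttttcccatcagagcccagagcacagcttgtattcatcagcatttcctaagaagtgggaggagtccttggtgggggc

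The windows are related in sequence, with 77.6% to 81.0% identity over the aligned bases, so the 3 matches are not independent of each other. The STAT element is in 7.14% of all 27025 windows of this length, the TEAD element in 12.6%, and neither strand of any of the 3 windows holds the interferon-stimulated response element (GAAA, any 2 bases, GAAA, in 3.05% of windows), the E-box CACGTG (6.04%) or the full glucocorticoid response element (AGAACA, any 3 bases, TGTTCT, in 1 window). The Serpina3i window runs past the annotated start of that gene (chr12:104263045-104269509), whereas those of Serpina3f and Serpina3g end at the base before the annotated start. A match describes letters and is not a bound site. The longest transcripts of the 4 genes are 86.5% to 93.9% identical over their aligned parts, so how reads divided among them is uncertain, and the 4 calls are not 4 separate measurements.

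Serpina3h (chr12:104247896-104254405) was at 223, 411, 257 and 252 CPM under the KO label and at 175, 173, 163 and 162 CPM under the WT label, a log2 fold change of 0.78 ± 0.15 (adjusted p = 0.013). Serpina3f was at 15.8, 28.3, 17.2 and 17.6 CPM under the KO label and at 11.4, 11.6, 9.92 and 11.6 CPM under the WT label (0.84 ± 0.16, adjusted p = 0.0092). Serpina3g was at 53.9, 76.2, 52.6 and 54.4 CPM under the KO label and at 38.8, 37.3, 34.8 and 40.1 CPM under the WT label (0.66 ± 0.13, adjusted p = 0.018). For each gene the 4 KO libraries lay above all WT libraries, with KO replicate 2 well above the rest. Serpina3i was at 48.2, 88.6, 53.1 and 52.2 CPM under the KO label and at 40.5, 34.3, 36.3 and 35.3 CPM under the WT label (0.74 ± 0.16, adjusted p = 0.028). Without KO replicate 2 the 4 fold changes were 0.50 to 0.62, and the 4 adjusted p in edgeR 0.25 to 0.42. Without WT replicate 4 the calls of Serpina3g, Serpina3h and Serpina3i were also lost, and without WT replicate 2 those of Serpina3g and Serpina3i, at fold changes of 0.66 to 0.76. Other measured genes of the cluster did not pass: Serpina3b differed by -0.16 ± 0.94, Serpina3j by 0.05 ± 0.83, Serpina3c by 0.56 ± 0.27 and Serpina3n by 0.39 ± 0.35.

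**Figure D2:**
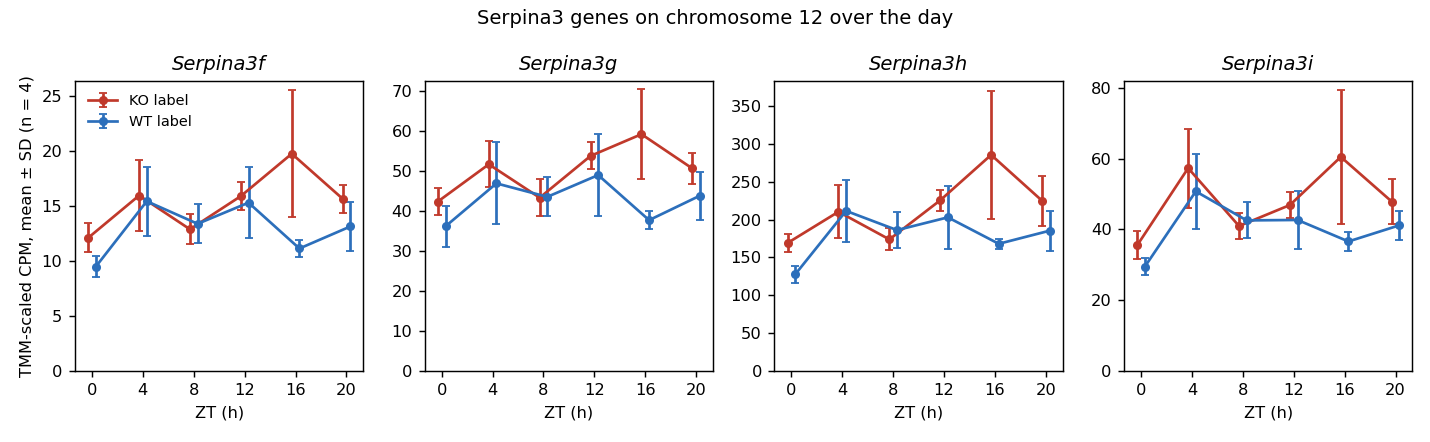
Mean level of Serpina3f, Serpina3g, Serpina3h and Serpina3i in TMM-scaled CPM at each ZT under the KO label and the WT label (points are means of 4 libraries, bars are SD). At ZT16 Serpina3h averages 286 CPM under the KO label and 168 CPM under the WT label, while at ZT8 its fold change is -0.10.

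At the other times the fold changes of these 4 genes lay between -0.10 and 0.40. The difference at ZT16 minus the mean of the other 5 differences was 0.71 for Serpina3f, 0.63 for Serpina3h, 0.59 for Serpina3i and 0.52 for Serpina3g. In edgeR the unadjusted p were 0.00019 to 0.0012 and the adjusted p 0.48 to 0.56, so none passed. The 4 genes were taken for their ZT16 call, and the same difference enters this test, so low unadjusted p are not separate support.

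The remaining calls were of a cytoskeletal gene and a sterol hydroxylase. Stmn1, which encodes the microtubule-destabilising protein stathmin that is abundant in dividing cells, was at 78.1, 67.4, 65.3 and 71.6 CPM under the KO label and at 80.4, 115, 93.8 and 104 CPM under the WT label. It fell by 0.47 ± 0.09 (adjusted p = 0.0095), with WT replicate 1 close to the KO label. Cyp27a1, the mitochondrial sterol 27-hydroxylase, was at 31.8, 48.4, 42.4 and 40.7 CPM under the KO label and at 32.5, 25.8, 28.2 and 26.2 CPM under the WT label. It rose by 0.55 ± 0.12 (adjusted p = 0.028), with KO replicate 1, the KO library with Xist, inside the WT range. Within the libraries with Xist alone, Cyp27a1 differed by 0.08 and Stmn1 by -0.15. Each of the 2 calls was lost when KO replicate 2 or 3 or WT replicate 2 or 4 was left out, and that of Cyp27a1 also without KO replicate 4.

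Interferon-induced genes showed higher values under the KO label without passing adjustment. All 22 members of the interferon-induced GTPase list had positive fold changes, with a median of 0.64, beside a median of -0.0038 over all genes tested. None passed in edgeR, DESeq2 or limma-voom, while 15 had an unadjusted p under 0.05 in the higher direction, against 4.99% of all genes higher and 4.63% lower. For 7 of the 22 the groups did not overlap, all higher, against 1.69% of all genes wholly higher. Iigp1, an immunity-related GTPase that attacks the vacuoles of intracellular parasites, was at 3.49, 11.4, 14.3 and 2.88 CPM under the KO label and at 1.87, 1.20, 1.29 and 2.18 CPM under the WT label (2.30 ± 0.69, adjusted p = 0.26). Irgm1, a regulator of those GTPases, was at 15.4, 18.7, 18.8 and 13.2 CPM under the KO label and at 10.4, 9.76, 11.8 and 11.9 CPM under the WT label (0.60 ± 0.18, adjusted p = 0.25). KO replicates 2 and 3 were the high libraries for both. Tgtp1 and its near copy Tgtp2, which can share reads, differed by 1.51 ± 0.49 and 1.39 ± 0.48. The guanylate-binding protein genes Gbp2 and Gbp7 differed by 0.66 ± 0.31 and 0.56 ± 0.24.

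Antiviral effectors followed at smaller values. Of the 39 tested, 31 had positive fold changes, with a median of 0.32. None passed in edgeR or limma-voom, and 1 passed in DESeq2. At an unadjusted p under 0.05 were 15, all higher, against 4.99% of all genes higher. With terms for sex-linked expression in the edgeR fit 3 were called higher, Oasl2 (1.43, adjusted p = 0.041), Parp14 and Ddx60. That fit called 144 of all genes tested (0.844%), 60 higher and 84 lower. Oasl2, a relative of the oligoadenylate synthetases, was at 3.49, 6.09, 8.02 and 1.98 CPM under the KO label and at 2.44, 1.502, 1.56 and 2.01 CPM under the WT label (1.39 ± 0.34, adjusted p = 0.14). Oas3, which makes the second messenger of RNase L, was at 1.21, 2.90, 4.55 and 2.03 CPM under the KO label and at 1.25, 1.00, 1.26 and 0.929 CPM under the WT label (1.27 ± 0.35). KO replicate 4 for Oasl2 and KO replicate 1 for Oas3 lay inside the WT range. Isg15, a ubiquitin-like modifier, differed by 0.43 ± 0.22, Ifit1, which binds foreign RNA, by 0.55 ± 0.42, and Oas2 by 0.04 ± 0.38. Without WT replicate 2 the list's median was 0.16, and without WT replicate 4 it was also 0.16; with genes kept at 1 CPM or more in 24 libraries it was 0.13.

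Sensors, receptors and signalling factors of the pathway lay closer to the level of all genes. Among the 17 ligands, receptors and sensors tested the median was 0.05, with 3 higher and 1 lower at an unadjusted p under 0.05. The shares over all genes were 4.99% and 4.63%. Ifngr1, a chain of the interferon-gamma receptor, was at 192, 233, 179 and 210 CPM under the KO label and at 166, 154, 159 and 160 CPM under the WT label (0.36 ± 0.14, adjusted p = 0.39). Zbp1, a sensor of Z-form nucleic acids, was at 0.569, 1.18, 1.48 and 0.595 CPM under the KO label and at 0.359, 0.100, 0.389 and 0.489 CPM under the WT label. The 18 signalling factors had a median of 0.11, and 0.07 without WT replicate 2 or 0.04 without WT replicate 4. Stat2, which carries the signal of type I interferons, differed by 0.24 ± 0.11, and its partner Irf9 by 0.26 ± 0.10. Irf7, which amplifies the type I response, differed by 0.28 ± 0.22. MHC class I presentation, 19 genes, had a median of 0.16, and 0.09 without KO replicate 3, with H2-K1 at 1506 ± 89 CPM under the KO label and 1416 ± 72 CPM under the WT label. MHC class II had a median of -0.20. Summed levels of immune cell markers overlapped between the labels. The T cell list summed to 171 to 221 CPM under the KO label and 177 to 254 CPM under the WT label, the Langerhans and dendritic cell list to 144 to 214 and 162 to 224 CPM, and the macrophage list to 80.4 to 123 and 82.3 to 110 CPM. The part of these cells in the interferon values was not tested.

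**Figure D3:**
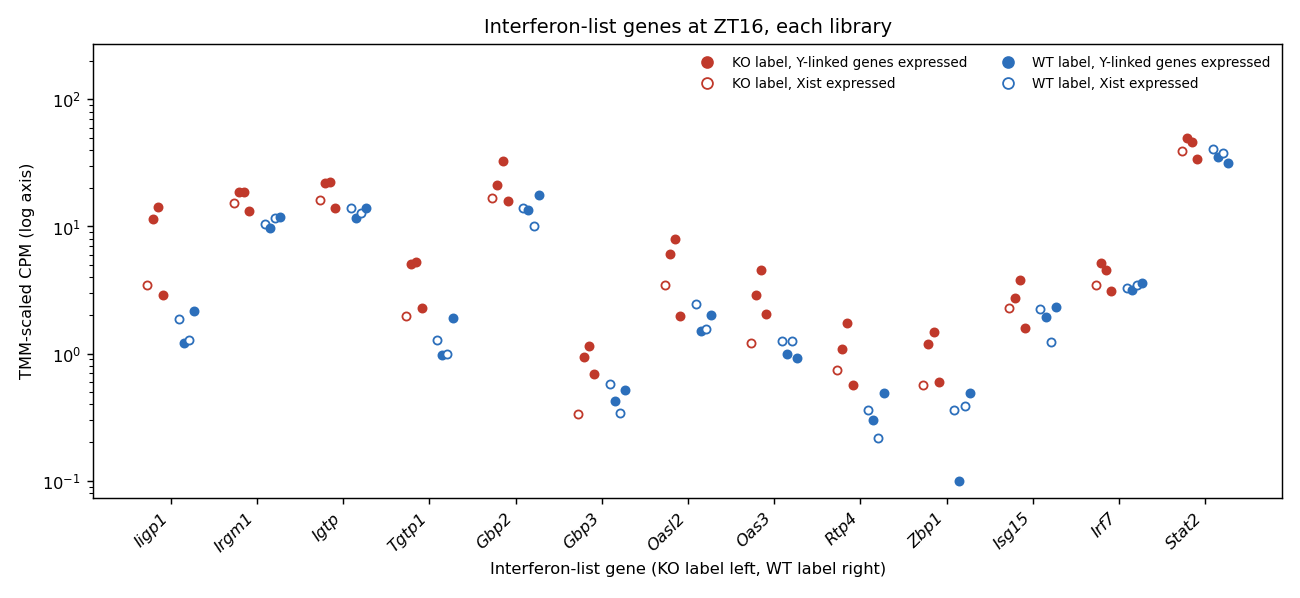
Level of 13 interferon-list genes in TMM-scaled CPM on a log axis in each ZT16 library, replicates 1 to 4 from left to right within a label (open circles express Xist, filled circles Y-linked genes). KO replicates 2 and 3 are the 2 highest libraries for all 13, which were picked with their values known. They are so for 43 of the 96 interferon-list genes tested, a share that was not computed over all genes. Iigp1, for example, is at 11.4 and 14.3 CPM in them against 2.18 CPM or less under the WT label.

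Glucocorticoid-induced genes also stood higher under the KO label. Of 18 genes, 17 had positive fold changes, with a median of 0.31. None passed in edgeR, DESeq2 or limma-voom, 7 had an unadjusted p under 0.05, all higher, and 4 did not overlap between the groups. Those 4 were wholly higher. Over all genes, 4.99% were higher with such a p and 1.69% were wholly higher. The 2 most abundant members were Dusp1, a phosphatase of MAP kinases, at 0.13 ± 0.29, and Txnip, an inhibitor of thioredoxin, at 0.73 ± 0.26. The 3 that follow were chosen after their values were seen. Tsc22d3, which encodes the glucocorticoid-induced leucine zipper, was at 200, 346, 193 and 213 CPM under the KO label and at 139, 118, 174 and 120 CPM under the WT label (0.80 ± 0.24, adjusted p = 0.26). Zbtb16, a zinc finger repressor, was at 114, 129, 118 and 155 CPM under the KO label and at 89.6, 35.0, 78.4 and 38.9 CPM under the WT label (1.10 ± 0.35, adjusted p = 0.31). Fkbp5, a co-chaperone of the glucocorticoid receptor, was at 61.3, 89.3, 63.5 and 59.1 CPM under the KO label and at 56.8, 31.5, 31.3 and 41.2 CPM under the WT label (0.78 ± 0.35). For these 3 the groups did not overlap, and the WT libraries with Y-linked expression were the lowest for Zbtb16 and Tsc22d3. KO replicate 2, the highest library for the Serpina3 genes, was the highest of the 8 for Tsc22d3 and Fkbp5 as well.

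No core clock gene passed at ZT16. None of the 19 tested was called in edgeR, DESeq2 or limma-voom, and the median was 0.13, and 0.24 without WT replicate 3. At an unadjusted p under 0.05, 2 were higher and 0 lower, against 4.99% and 4.63% of all genes. Per1, a repressor that is also glucocorticoid-induced, was at 171, 192, 131 and 182 CPM under the KO label and at 114, 77.5, 131 and 74.5 CPM under the WT label (0.77 ± 0.32, adjusted p = 0.42). Ciart, a repressor of CLOCK and BMAL1, was at 7.16, 10.7, 10.5 and 12.3 CPM under the KO label and at 8.32, 4.30, 7.32 and 6.43 CPM under the WT label (0.64 ± 0.23). WT replicates 2 and 4 were the lowest for Per1, and likewise for Nr1d1, at 65.2, 58.4, 69.4 and 76.6 CPM under the KO label and at 85.9, 40.5, 78.4 and 45.9 CPM under the WT label. Arntl, which encodes BMAL1, differed by -0.05 ± 0.12, Clock by 0.07 ± 0.07, Per2 by 0.35 ± 0.29 and the output gene Dbp by 0.21 ± 0.26.

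Cell cycle genes had lower values under the KO label without passing adjustment. All 24 genes of the G2 and M phase list had negative fold changes, with a median of -0.32, and all 25 of the S phase list, with a median of -0.21. None passed in edgeR or limma-voom and 1 S phase gene passed in DESeq2. At an unadjusted p under 0.05 were 15 and 13 in the same order, all lower, against 4.63% of all genes lower. With terms for sex-linked expression in the edgeR fit 4 mitotic genes were called lower (Cdk1, Bub1, Bub1b and Tpx2). So were 3 of DNA precursor synthesis (Tk1, Dut and Rrm1). Of all genes tested, 144 were called in that fit (0.844%), 60 higher and 84 lower. Mki67, the proliferation antigen, was at 142, 165, 135 and 158 CPM under the KO label and at 140, 236, 193 and 197 CPM under the WT label (-0.34 ± 0.12, adjusted p = 0.34). Top2a, the topoisomerase of mitotic chromosomes, was at 81.9, 86.2, 73.4 and 84.1 CPM under the KO label and at 80.5, 130, 99.8 and 107 CPM under the WT label (-0.34 ± 0.11). WT replicate 1 lay among the KO libraries for both. Pcna, the sliding clamp of replication, was at 115, 108, 118 and 132 CPM under the KO label and at 127, 151, 124 and 151 CPM under the WT label (-0.22 ± 0.08). Mcm6, of the replicative helicase, differed by -0.22 ± 0.09. Tk1, thymidine kinase, was at 22.5, 22.3, 20.0 and 22.3 CPM under the KO label and at 26.7, 29.4, 28.4 and 25.2 CPM under the WT label (-0.32 ± 0.08, adjusted p = 0.14 in edgeR). Its groups did not overlap, and Tk1 was chosen after its values were seen. Without WT replicate 4, the library with anagen hair genes, whose matrix cells divide, the medians were -0.29 for G2 and M phase and -0.22 for S phase. The 13 mitochondrially encoded genes, which are read as a sign of RNA quality, moved with the G2 and M phase list. They were all lower under the KO label, with a median of -0.27 and -0.13 without WT replicate 4. Of them, 1 was lower at an unadjusted p under 0.05, against 4.63% of all genes. Their mean log2 level lay at -0.22, 0.09, -0.34 and -0.0006 from the mean of the 8 libraries under the KO label and at -0.48, 0.40, 0.08 and 0.46 under the WT label. WT replicates 2 and 4 were highest and WT replicate 1 lowest. The part of RNA quality in the cell cycle values was not tested.

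Chaperones of the endoplasmic reticulum were lower as well. Of 18 genes of the unfolded protein response, 14 had negative fold changes, with a median of -0.23. None passed in edgeR, DESeq2 or limma-voom, and 10 were lower and 1 higher at an unadjusted p under 0.05. Over all genes these shares were 4.63% lower and 4.99% higher. Calr, the calcium-binding chaperone calreticulin, was at 324, 255, 272 and 263 CPM under the KO label and at 359, 406, 295 and 353 CPM under the WT label (-0.33 ± 0.10, adjusted p = 0.26). Hsp90b1, the HSP90 form of this compartment, was at 315, 245, 244 and 252 CPM under the KO label and at 316, 362, 298 and 356 CPM under the WT label (-0.32 ± 0.10). Among libraries with Xist the list's median was 0.02, and among those with Y-linked expression -0.42, where the mitochondrially encoded genes had -0.0089 and -0.48.

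**Figure D4:**
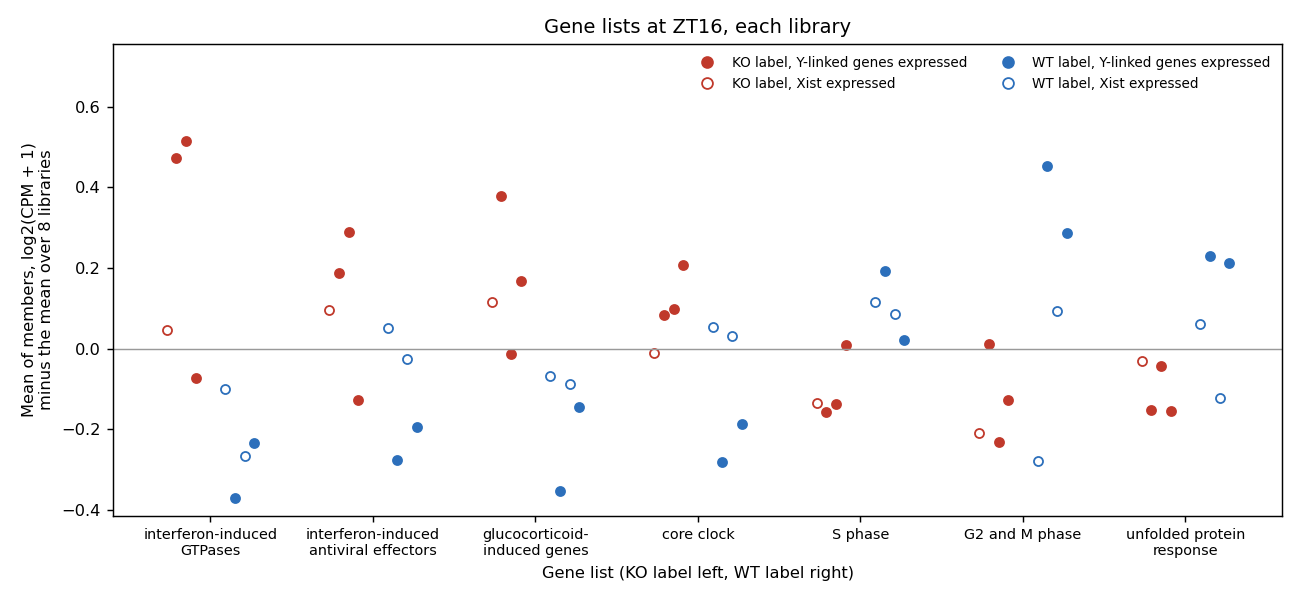
Mean over the members of each gene list of log2(CPM + 1), less the mean over the 8 ZT16 libraries, for every library, replicates 1 to 4 from left to right within a label (open circles express Xist, filled circles Y-linked genes). KO replicates 2 and 3 lie at 0.47 and 0.52 in the interferon-induced GTPases, while WT replicate 1 lies at -0.28 in the G2 and M phase list, below the 4 libraries labelled KO.

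The Hippo pathway and its effector YAP are named in the series title. Of 20 Hippo genes, 1 was called, Stk3, beside 0.129% of all genes, and the median was 0.07. Stk3 is among the 14 chromosome 15 calls. Its call was kept in 3 of the 8 fits with 1 library left out, and Stk3 was also called at ZT0, ZT8 and ZT20. Yap1 itself was at 266 ± 8 CPM under the KO label and 255 ± 12 CPM under the WT label (SD, 0.07 ± 0.06). Among 25 tested YAP/TAZ targets none passed in edgeR, DESeq2 or limma-voom, and the median was 0.09. At an unadjusted p under 0.05, 4 were higher and 1 lower, against 4.99% and 4.63% of all genes. The most abundant, Igfbp3, which binds insulin-like growth factors, and Ptpn14, a phosphatase that restrains YAP, differed by 0.45 ± 0.32 and 0.18 ± 0.11. Ccn2, a matricellular protein gene chosen after its values were seen, was at 73.5, 71.3, 53.4 and 88.7 CPM under the KO label and at 51.8, 28.4, 43.6 and 34.2 CPM under the WT label (0.87 ± 0.24, adjusted p = 0.23). Its groups did not overlap, while Ccn1, of the same family, differed by 0.14 ± 0.44.

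No member was called in lists of other functions. The 18 genes of cholesterol synthesis had a median of -0.18, with 15 negative. Of them, 3 were lower at an unadjusted p under 0.05, against 4.63% of all genes. The 26 immediate early genes had a median of 0.13, with 21 positive. Medians were -0.03 for 29 chemokine and cytokine genes, -0.12 for 16 alarmin and stress keratinocyte genes, 0.06 for 16 basal keratinocyte genes, -0.15 for 32 differentiation genes and 0.03 for 15 p53 and senescence genes. The cell type lists were uncalled too. The anagen hair list had a median of -2.04, and -0.09 without WT replicate 4; the fibroblast and dermis list had -0.84, and -0.21 without it. The hair keratin gene Krt25 was at 12.0, 13.5, 7.37 and 9.69 CPM under the KO label and at 7.96, 15.9, 11.2 and 82.1 CPM under the WT label.

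Whether the ZT16 difference departed from that at other times was tested by setting it against the mean of the differences at ZT0, ZT4, ZT8, ZT12 and ZT20. No gene passed (0.0%; edgeR, with 1121 genes at an unadjusted p under 0.05), and neither DESeq2 nor limma-voom called any. The 5 smallest p, which did not pass, belonged to Cyp27a1 (0.56 higher on the log2 scale at ZT16 than at the other times), Mthfd2 (-0.86), Stmn1 (-0.42), Ptp4a3 (-0.49) and Fbxo38 (0.19). Mthfd2, a mitochondrial enzyme of folate metabolism, was at 3.39, 3.24, 2.54 and 2.78 CPM under the KO label and at 4.70, 6.06, 3.23 and 5.48 CPM under the WT label. In time order from ZT0 to ZT20, the single times gave 9, 9, 13, 4, 22 and 10 calls. Of the 22 genes called at ZT16, 13 had the same sign at all other times. At ZT0, ZT4, ZT8, ZT12 and ZT20, 7, 3, 9, 3 and 7 of the 22 were also called. The median of the interferon-induced GTPases from ZT0 to ZT20 was 0.27, 0.54, 0.08, 0.33, 0.64 and -0.04. That of the G2 and M phase list was -0.02, -0.09, 0.20, -0.27, -0.32 and 0.07. In that order, libraries with Xist numbered 1, 1, 2, 3, 1 and 1 of 4 under the KO label and 3, 2, 2, 2, 2 and 4 of 4 under the WT label, so the times differed in this respect, and its part in the course over time was not tested. The median of the glucocorticoid-induced genes was -0.05, 0.09, 0.16, -0.14, 0.31 and -0.04.

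**Figure D5:**
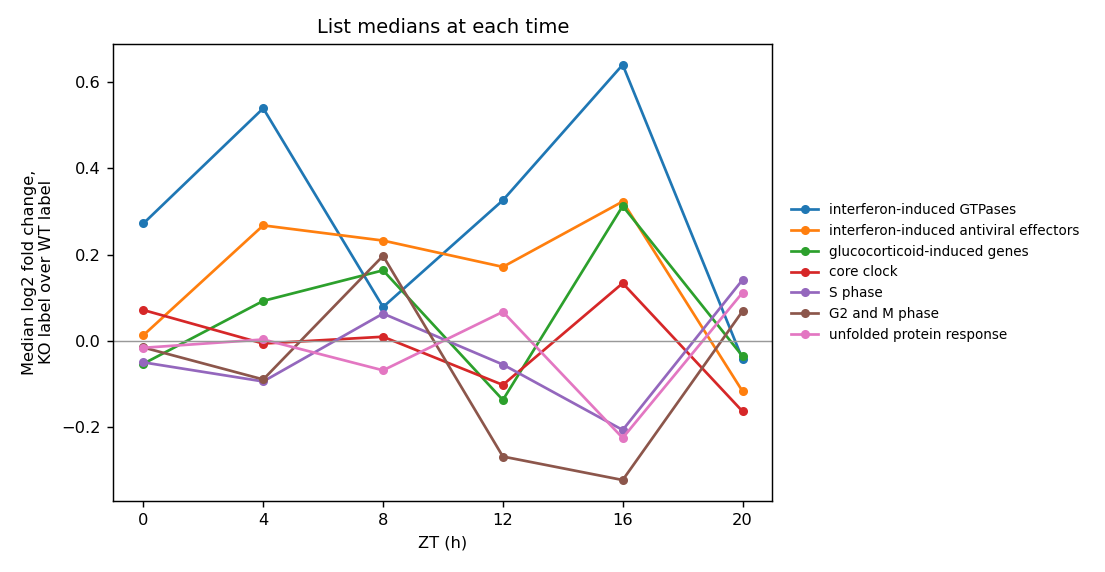
Median log2 fold change (KO label over WT label) of 7 gene lists at each ZT, from the contrast of that time in 1 fit. The interferon-induced GTPases stand at 0.64 at ZT16 and -0.04 at ZT20, and the G2 and M phase list at -0.32 at ZT16 and 0.20 at ZT8.

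Because libraries with Xist and with Y-linked expression were unevenly divided, the comparison was repeated within each kind, an analysis chosen after the data were seen. All 48 libraries entered the fit, with a mean for each kind within each group. The spread was estimated over all of them, and some of these sets held 1 library. Among the 5 libraries with Y-linked expression, 3 labelled KO and 2 labelled WT, edgeR called 561 genes higher (3.29%) and 569 lower (3.33%). Without WT replicate 4 it called 36 genes in all, without KO replicate 2 it called 217, without WT replicate 2 it called 457, and without KO replicate 4 it called 551. Among the 3 libraries with Xist, 1 labelled KO and 2 labelled WT, it called 2 (0.0117%), Col14a1 and an unnamed ID. The difference between the 2 kinds passed for 1 gene (0.00586%), with 2064 at an unadjusted p under 0.05, and for none without WT replicate 4. That gene was Tecpr1, of autophagosome maturation, at 32.1, 37.5, 33.8 and 36.6 CPM under the KO label and at 39.7, 27.1, 38.9 and 25.9 CPM under the WT label. With terms for sex-linked expression in the fit to all 48 libraries, 144 genes were called (0.844%), 60 higher and 84 lower, among them all 22.

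Within the libraries with Y-linked expression the interferon-induced GTPases had a median of 0.96, with 2 of 22 called higher. The antiviral effectors had 0.50, with 11 of 39 called higher. Of all genes tested, 3.29% were called higher and 3.33% lower in this comparison, the shares to set beside each count of calls. Oasl2 differed there by 1.63 and Oas3 by 1.72. The G2 and M phase list had a median of -0.52, with 13 of 24 called lower, and 10 of the 18 unfolded protein response genes were called lower. Beside them the anagen hair list had a median of -3.15, the fibroblast and dermis list -1.82, the melanocyte list -0.93 and the mitochondrially encoded genes -0.48, against 1.15, 0.64, 0.96 and -0.0089 among libraries with Xist. Their part in these calls was not tested. The core clock had a median of 0.39 with 3 called higher, among them Per1 (1.16) and Ciart (1.08), and the glucocorticoid-induced genes 0.42 with 3 called higher, Per1 included with Tsc22d3 (1.09) and Zbtb16 (1.87). Without WT replicate 4 none of these GTPase, antiviral or glucocorticoid calls was made, and 3 G2 and M phase, 5 unfolded protein response and 1 core clock call were. The medians among libraries with Xist were 0.37 for the GTPases, 0.11 for the antiviral effectors, -0.15 for G2 and M phase, -0.06 for the core clock and 0.24 for the glucocorticoid-induced genes. The part of hair genes and of single mice in these values was not tested beyond the counts given.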

How the data were processed

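The authors deposited 1 table of raw counts per gene for 48 libraries of epidermis; the build mm10 (GRCm38), STAR 2.7.10a, featureCounts and Trim Galore were used, per the submitters' processing notes. Tool settings, strandedness of counting included, and gene models were not given in the sources used here, so reads of overlapping genes and near copies may be divided either way. Of 27179 gene IDs, 25275 were named through RefSeq, 18 through GENCODE and 1886 not at all (4.65% of counts). Totals were 35.6 to 43.7 M counts.

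Differences were computed in R 4.3.3 with edgeR 4.0.16 (quasi-likelihood test, robust, TMM scaling, filterByExpr, 12 group means over 48 libraries), with Benjamini-Hochberg adjustment over 17068 genes and a threshold of 0.05. The method was tested on simulated counts in which each gene's spread was the same in all groups. They held no sex-linked or single-library differences, so the test does not cover these features. Nothing says that replicates came from separate litters or days, so p-values measure only the spread between these libraries. That spread, like the SE, was estimated over the 12 groups of 48 libraries and is not that of ZT16 alone. Alternatives were DESeq2 1.42.0, limma-voom (limma 3.58.1), RLE size factors, no filter or 1 CPM in 24 libraries, a replicate block, terms for sex-linked expression, the 8 libraries alone, and each library left out; fits within sex-linked types were added after the data were seen. A library counted as expressing Xist above 100 CPM.

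The genes and lists were chosen with earlier results of these data known. Named were Col14a1, called genes of at least 1 CPM (up to 12 per direction), up to 4 called or the 2 most abundant members of a list, any interferon or clock gene, and the 5 smallest p where fewer were called. Called genes under 1 CPM, members of the Serpina3 cluster that were not called, Tecpr1, Tk1, Calr, Krt25 and Col1a1 were chosen after their values were seen. Windows before gene starts came from RefSeq, compared with blastn 2.17.0. List levels in the plots are log2(CPM + 1).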

Additional observations from a re-analysis of the deposited data

Results flagged for a closer look

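In groups of 4 libraries, 1 library stood apart from its group by Dixon's test (gap over range above its 95% critical value) in 21 of 172 groups looked at. Chance flags about 1 in 20 groups that are independent and set in advance. The groups here share libraries, and some genes were chosen after their values were seen, so the rates cannot be compared. KO replicate 2 was the library apart for Serpina3f (28.3 CPM), Serpina3g (76.2 CPM), Serpina3i (88.6 CPM), Tsc22d3 (346 CPM), Fkbp5 (89.3 CPM), Col14a1 (71.7 CPM) and Col1a1 (20.6 CPM), each time as the highest KO library. KO replicate 3 was the highest KO library for Gbp7 (7.87 CPM), Ly6k (1.84 CPM) and Krt10 (17506 CPM) and the lowest for Tk1 (20.0 CPM). KO replicate 1, the KO library with Xist, was highest for Hsp90b1 (315 CPM), Epcam, an epithelial adhesion gene (159 CPM), and Slc22a22 (0.0258 CPM, the other 3 being at 0). KO replicate 4 was highest for Per2 (96.9 CPM).

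Among libraries labelled WT, replicate 4 was highest for the hair genes Tchh (146 CPM) and Krt25 (82.1 CPM). WT replicate 2 was highest for Gm5481 (13.4 CPM) and lowest for Bst2, which tethers virions (3.38 CPM). WT replicate 1 was highest for Irgm2 (20.3 CPM), and WT replicate 3 lowest for Serpina3f (9.92 CPM).

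The difference of Tecpr1 between labels was 0.74 larger on the log2 scale among libraries with Y-linked expression than among those with Xist (edgeR interaction, adjusted p = 0.0053). The value among libraries with Xist rests on 1 library labelled KO, which is assumed to vary like the others, and without WT replicate 4 no gene passed.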

How the results depend on the processing

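The count of 22 called genes at ZT16 became 38 with DESeq2, 144 with terms for sex-linked expression and 1 (Col14a1) with only the 8 ZT16 libraries. It was 22 with RLE size factors, 18 with limma-voom, 21 with no filter and 17 with the stricter filter. Leaving out 1 library gave 5 (without KO replicate 2) to 41 (without WT replicate 3), with 10 without WT replicate 4 and 12 without WT replicate 2. Col14a1, Ptp4a3, Polr2k and 2 unnamed IDs were called in all 8 of these. Within libraries with Y-linked expression the count was 1130, and 36 to 1043 with 1 of them left out. Within libraries with Xist it was 2. The difference between the kinds gave 1 gene, and 0 to 6 with 1 library left out. The ZT16 difference against the other times gave 0 in each setting run. None of the 20 named called genes changed sign in a setting that gave it a value. Of 66 named genes that were not called, 21 changed sign within libraries with Xist, among them Oas3, Hsp90b1, Per2 and Nr1d1, 3 with terms for sex-linked expression and up to 4 with 1 library left out. The core clock median within libraries with Xist was -0.06 and the anagen hair median 1.15. The cause of these shifts was not tested. Fewer libraries leave fewer degrees of freedom, and some called genes varied more at ZT16 than at other times. Under the KO label the SD of Serpina3h was 85.0 CPM at ZT16 and 11.5 to 35.1 CPM at the other times. That of Fzd6 was 18.5 against 4.01 to 7.92 CPM, whereas that of Stk3, 2.61 CPM, lay within 1.67 to 3.14 CPM.

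With a replicate block 19 genes were called. Libraries with the same number deviated from their group means with correlations of 0.47, 0.0074, -0.39 and 0.16. Those with different numbers did so with correlations of -0.496 to 0.46. These values show no pairing of the mice by number and cannot exclude one. At 37.0 M counts or more per library, genes under 1 CPM rest on few reads; Slc22a22 had reads in 1 library labelled KO.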

Other observations

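Serpina3b, a serpin gene near the 4 called ones that was singled out after its values were seen, was at 58.0, 8.25, 5.81 and 4.16 CPM in KO replicates 1 to 4 and at 42.9, 5.31, 33.6 and 3.77 CPM in WT replicates 1 to 4. The 3 libraries with Xist were the high ones. Sebaceous gland markers, 11 genes of lipid-secreting cells of the hair follicle, summed to 264, 77.5, 85.6 and 63.8 CPM under the KO label and to 225, 80.8, 162 and 75.6 CPM under the WT label, with the same 3 libraries highest. No sebaceous gene was called by edgeR, DESeq2 or limma-voom between the labels, and none had an unadjusted p under 0.05.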
